A study of Mus musculus with 12 samples.

Results

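The genes examined were those that encode proteins of the mitochondrial ribosome. They were chosen by name, as protein-coding mouse genes whose symbol begins with Mrpl or Mrps followed by a number. Of the 38924 gene identifiers in the count tables, 77 met that rule, and 76 of them had enough reads to be tested. The remaining member, Mrpl53, had at most 1 read in any tumor. By the place of the product in the ribosome, 50 members belong to the large subunit and 27 to the small subunit. The large-subunit set includes Mrps30 and Mrps18a, whose symbols carry the small-subunit letter although their products sit in the large subunit. By family, 47 members have a bacterial counterpart and 30 were counted as occurring only in mitochondrial ribosomes. Both the 27 and the 30 count Mrps36, although its product is now assigned to another complex, as described below.

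Transcripts had been sequenced in 12 pancreatic neuroendocrine tumors (PanNETs, here insulinomas) of RIP1TAG2 mice of the C57Bl6 strain, 4 tumors in each of 3 treatment groups. All 12 tumors carried the same transgene, in which the rat insulin promoter drives SV40 T antigens in pancreatic beta cells, so the control group is itself made of tumors. Control mice received saline, the second group received sunitinib alone, and the third received rapamycin with sunitinib (R+S). Sunitinib inhibits receptor tyrosine kinases that blood vessels depend on, rapamycin inhibits mTOR complex 1, and the design asked how single and combined therapy differed from sham treatment. Treatment started at 15.5 weeks of age and lasted 4 days in all groups. A group with rapamycin alone was not analysed here, so R+S against sunitinib shows the addition of rapamycin only in tumors that also received sunitinib. The labels do not say which mouse each tumor came from, so p-values measure the spread between these tumors, which may in part be technical. The labels also carry prefixes of unstated meaning. One prefix is common to all 4 controls and each of the others belongs to a single treatment, so prefix and treatment cannot be told apart. Tumors are named below by their group and number as labelled.

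Mitochondrial ribosomes translate the small set of mRNAs made from mitochondrial DNA, all of which encode subunits of the respiratory chain complexes and of ATP synthase. Their ribosomal RNAs come from mitochondrial DNA, whereas every protein subunit is encoded in the nucleus, made by cytosolic ribosomes and imported. Insulin-secreting cells depend on mitochondrial ATP production to couple glucose to insulin release. mTOR complex 1 is known to promote the translation and transcription of many nuclear genes for mitochondria.

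Since the members lie on 17 chromosomes and share no transcript, their promoters were read as the sequence they might have in common. A promoter window of 250 bases before to 50 bases after the start site was given for 68 of the 77 members in RefSeq (GRCm38.p6). The letters CCGGAAG, the core recognized by ETS factors such as GABP, occurred on either strand in 25 of the 68 windows (36.8%), against 18.03% of the windows of 11407 tested protein-coding genes. AAGATGGC, a YY1-like element, occurred in 12 windows (17.6%, against 4.75%). GCGCANGCG, an NRF1-like element, occurred in 16 windows (23.5%, against 13.9%). CACGTG, the E-box bound by MYC and related factors, occurred in 5 windows (7.35%, against 11.1%). At least 1 of the first 3 elements was in 43 of 68 windows (63.2%), against 31.8% of all windows. These spellings were settled after longer and shorter forms had been scanned, and a match describes letters and not binding. The following stretches of 110 bases end at the base before the RefSeq start site. They belong to members whose values are described below, and capitals mark a match to one of the 4 elements on either strand. Mrpl20 lies at chr4:155802768-155802877 (+ strand) and holds an E-box 33 bases before the start. Mrps15 lies at chr4:126046818-126046927 (+ strand) and holds none of the 4 in this stretch. Mrpl12 lies at chr11:120484527-120484636 (+ strand), with an NRF1-like match 80 bases before the start. Mrpl45 lies at chr11:97315606-97315715 (+ strand), with an NRF1-like match 38 bases before the start. Mrps27 lies at chr13:99344676-99344785 (+ strand), with an ETS core 48 bases before the start.
Mrpl20: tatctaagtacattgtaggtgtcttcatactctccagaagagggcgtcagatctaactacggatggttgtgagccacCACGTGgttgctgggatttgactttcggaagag
Mrps15: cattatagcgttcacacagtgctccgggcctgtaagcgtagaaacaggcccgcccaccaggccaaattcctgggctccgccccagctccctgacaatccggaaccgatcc
Mrpl12: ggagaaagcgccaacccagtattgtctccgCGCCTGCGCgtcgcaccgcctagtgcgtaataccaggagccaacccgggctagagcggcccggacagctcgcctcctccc
Mrpl45: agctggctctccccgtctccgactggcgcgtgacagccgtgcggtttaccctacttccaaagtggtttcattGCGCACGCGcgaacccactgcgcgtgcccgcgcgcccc
Mrps27: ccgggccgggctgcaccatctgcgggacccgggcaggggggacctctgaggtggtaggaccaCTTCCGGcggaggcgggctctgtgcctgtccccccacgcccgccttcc
The members called lower in both R+S comparisons were Mrpl20, Mrps15 and Mrpl18. In their whole windows Mrpl18 holds an ETS core, Mrpl20 an E-box and Mrps15 none of the 4.

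Reads on genes summed to between 31872342 and 44215054 per tumor. Pairwise correlations of log2 levels were 0.967 to 0.991 within the controls, 0.967 to 0.982 within R+S and 0.872 to 0.978 within sunitinib, where tumor 6 stood apart. Beta-cell transcripts marked every tumor, and the summed level of 14 such markers was 45956 to 71916 CPM (read counts scaled to a common library total) in the controls, 11927 to 87557 in sunitinib and 51658 to 78876 in R+S. The lowest of these values was that of sunitinib tumor 6. Among single markers, the lowest sunitinib values were 784 CPM for Ins2, 338 for Ins1 and 487 for Iapp. The lowest control values were 17904, 3835 and 7774 CPM in that order. Chga was at 2849 CPM or more in sunitinib and 2581 or more in the controls. Acinar markers, the digestive enzymes of the surrounding exocrine pancreas, summed to 41.9 to 148 CPM in the controls, 14069 to 50262 in sunitinib and 3714 to 20129 in R+S. Endothelial markers summed to 587 to 786 CPM in the controls, 66.0 to 105 in sunitinib and 124 to 162 in R+S. By edgeR, 30 of 31 tested acinar markers were higher in sunitinib than in control, 29 of 31 were higher in R+S than in control, and 4 were lower in R+S than in sunitinib. Of 12 endothelial markers, 11 were lower than in control in each treated group, and 7 were higher in R+S than in sunitinib. The summed duct markers were 388 to 509, 257 to 621 and 370 to 467 CPM in control, sunitinib and R+S, the macrophage markers 665 to 931, 298 to 879 and 437 to 657 CPM, and the fibroblast markers 432 to 1085, 784 to 1081 and 498 to 744 CPM. In sunitinib against control, edgeR called 3 of 7 duct markers higher, 3 of 12 macrophage markers lower and 1 of 10 fibroblast markers lower. In each R+S comparison it called 1 macrophage marker lower and no duct or fibroblast marker. The part of these other cells in the values below was not tested, except by the alternative fits given beside them.

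Together the members made up 0.232% to 0.282% of all counted reads in the controls, 0.238% to 0.367% in sunitinib and 0.192% to 0.208% in R+S. Levels below are given as normalized CPM, in which read counts are divided by the library total after TMM scaling (a scaling that sets the bulk of genes level between libraries). The summed level of the 77 members was 2667, 2608, 2506 and 2278 CPM in control tumors 1, 2, 3 and 4. It was 2378, 2661, 2768 and 3749 CPM in sunitinib tumors 5, 6, 8 and 12. It was 2120, 1926, 2042 and 2006 CPM in R+S tumors 4, 5, 7 and 10. Every R+S tumor therefore lay below every control and every sunitinib tumor, the controls and the sunitinib tumors overlapped, and sunitinib tumor 12 was far above the other 3 of its group. The group means were 2515 ± 171 CPM in the controls, 2889 ± 597 in sunitinib and 2023 ± 80.4 in R+S (SD, n = 4 each). In bulk tumors, fewer cells that express the members and less of their RNA per cell cannot be told apart. Sunitinib tumor 12 also had the lowest acinar sum of its group, 14069 CPM, and the highest beta-cell sum of all tumors, 87557 CPM. The next highest beta-cell sums, 78876 and 77698 CPM, were those of R+S tumors 4 and 10, with 2120 and 2006 CPM of the members. Sunitinib tumor 6 had the lowest beta-cell sum, 11927 CPM, with 2661 CPM of the members. How these sums relate was not tested.

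**Figure D1:**
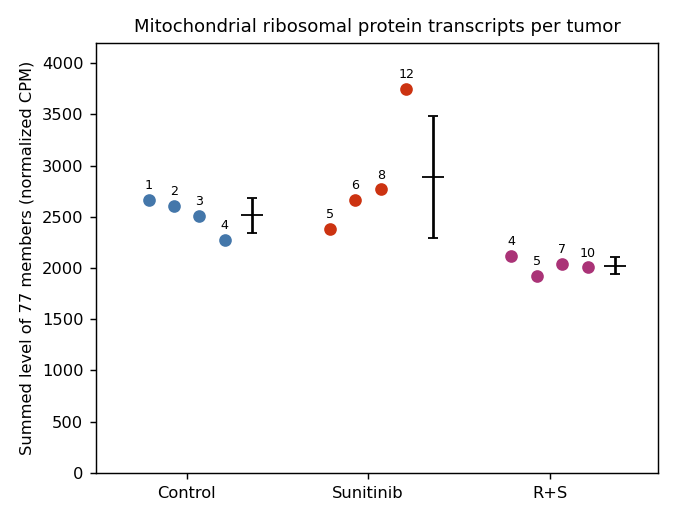
Summed level of the 77 mitochondrial ribosomal protein genes in each tumor, in normalized CPM on a linear axis from 0. Each point is a tumor labelled with its number, and the bar beside each group gives the mean and 1 SD of its 4 tumors. The 4 R+S tumors sit between 1926 and 2120 CPM, below all 8 others, and sunitinib tumor 12 sits at 3749 CPM.

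The levels of most members varied together from tumor to tumor. Over the 12 tumors, the correlation of a member's log2 CPM with the mean of all members had a median of 0.90, and it was above 0.8 for 58 of the 76 tested members and below 0.5 for 8. These points share the same libraries and their scaling, so the values are a description. The lowest were Mrpl3 (-0.52) and Mrpl23 (-0.26), followed by Mrpl37 (0.34), Mrps31 (0.40), Mrps5 (0.43), Mrps6 (0.48), Mrps33 (0.49) and Mrpl39 (0.49). Sunitinib tumor 12 had the highest level of all 12 tumors for 60 of the 76 members, and tumor 6 for 9. The lowest level of all 12 tumors was in R+S tumor 5 for 29 members and in R+S tumor 10 for 23.

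Per length of annotated exon, the members differed widely in level within the control tumors. The highest medians were those of Mrps21, a small-subunit protein (45.0 CPM per kilobase, range 37.2 to 51.2), Mrpl28 (44.7, range 36.7 to 50.2) and Mrpl10, a counterpart of the bacterial stalk-base protein (41.4, range 35.7 to 44.0). The ranges of these 3 overlapped, so their order is not resolved by 4 tumors. The lowest detected were Mrpl23, a protein near the exit of the peptide tunnel (0.47 CPM per kilobase, range 0.38 to 0.58), and Mrps35 (2.53, range 2.29 to 2.66), which did not overlap. Exon length was the union over all annotated transcripts, which understates genes with long unused exons. Mrpl53 shares 88.0% of its exon bases with another gene on the same strand, and 82.0% of its 50-base words occur in transcripts of another gene. Reads that fall on several genes were not counted, so its near-absence is not a measure of its transcript. Shared words were also frequent in Mrps34 (71.8%) and Mrps25 (68.2%), whose levels are uncertain for the same reason.

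The effect of adding rapamycin to sunitinib was addressed by comparing R+S with sunitinib. Of the 76 tested members, 74 had a lower mean in R+S and the median log2 fold change was -0.50, a ratio of 0.705, against a median of -0.02 over all 16645 tested genes. Of these members 24 (31.6%) passed an adjusted p of 0.05 as lower and none as higher by the edgeR quasi-likelihood test with Benjamini-Hochberg adjustment over all tested genes. Over all tested genes 4.58% passed as lower and 2.63% as higher. At an unadjusted p under 0.05, 62 members were lower and none higher, against 17.6% and 12.8% of all tested genes. DESeq2 called 49 members lower and none higher, against 10.96% and 7.33% of all genes. All 4 R+S tumors lay below all 4 sunitinib tumors for 45 members (59.2%), against 9.73% of all tested genes.

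The count of 24 depended strongly on which tumors entered the fit, while 73 or 74 members kept a lower mean whichever tumor was left out. It was 9 without sunitinib tumor 12, 11 without sunitinib tumor 8, 48 without sunitinib tumor 5, 11 without control tumor 2, 7 without control tumor 3, 5 without R+S tumor 10, and 0 without R+S tumor 4, 5 or 7. The whole table moved with it. Of all tested genes, 2.31% were called lower without sunitinib tumor 12, 2.71% without sunitinib tumor 8 and 10.01% without sunitinib tumor 5. The share was 2.28% without control tumor 2, 1.54% without control tumor 3 and 1.10% without R+S tumor 10. Without R+S tumor 4, 5 or 7 at most 1 gene of all tested was called lower and none higher. Each call of this comparison named below, in the other lists too, was therefore lost without at least 1 of those 3 R+S tumors, while the median of the members stayed between -0.53 and -0.51 in those 3 fits. Without sunitinib tumors 6 and 12, an alternative added after the data had been seen, the count was 5 (Mrps15, Mrpl15, Mrpl54, Mrpl12 and Mrps28). In that fit 0.73% of all genes were called lower, and the median log2 fold change of the members was -0.33. The count was 0 when only the 8 tumors compared were fitted, where 3 genes passed as lower in the whole table. It was also 0 with the acinar score as a covariate, where no gene was called and the median was -0.57.

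Mrpl12, the stalk protein of the large subunit that recruits translation factors and is also known to bind the mitochondrial RNA polymerase, had the largest called difference. Its level was 38.7, 60.3, 43.6 and 68.5 CPM in sunitinib tumors 5, 6, 8 and 12, and 23.4, 20.1, 25.2 and 23.4 CPM in R+S tumors 4, 5, 7 and 10. The groups did not overlap, and the R+S tumors were also below the controls, at 41.0, 37.3, 35.6 and 30.1 CPM. The log2 fold change of R+S against sunitinib was -1.20 ± 0.18 (SE), a ratio of 0.437, with an edgeR adjusted p of 0.0179. When single tumors were omitted in turn, Mrpl12 (chr11:120484613-120489065) was called in 9 of 12 fits, the exceptions being R+S tumors 4, 5 and 7.

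Mrpl54, a large-subunit protein found only in mitochondrial ribosomes, was at 36.7, 32.9, 40.0 and 69.8 CPM in the sunitinib tumors in the same order and at 22.3, 18.99, 24.3 and 21.7 CPM in R+S. Tumor 12 was the highest by a wide margin, but the other 3 sunitinib tumors were above all R+S tumors as well. The log2 fold change was -1.04 ± 0.21 (SE, edgeR adjusted p = 0.0277). Mrps28, a small-subunit protein, was at 20.8, 14.8, 25.5 and 38.1 CPM in sunitinib and at 12.8, 10.8, 12.4 and 12.2 CPM in R+S. Sunitinib tumor 6 was close to the R+S tumors but above them all, and the log2 fold change was -1.04 ± 0.24 (SE, edgeR adjusted p = 0.0328).

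Among the other large-subunit members called lower were Mrpl15, Mrpl18, Mrpl20, Mrpl32, Mrpl34 and Mrpl45. Mrpl15, whose bacterial counterpart joins late in subunit assembly, was at 36.3 to 57.6 CPM in sunitinib and 25.5 to 29.3 CPM in R+S (log2 fold change -0.75 ± 0.13 SE, edgeR adjusted p = 0.0241). Mrpl45, which lies at the exit of the peptide tunnel next to the inner membrane, was at 28.8 to 42.7 CPM in sunitinib and 20.1 to 24.6 CPM in R+S (-0.66 ± 0.14 SE). Mrpl32, a zinc-binding protein matured by the m-AAA protease before it enters the subunit, was at 23.0 to 32.5 CPM in sunitinib and 15.7 to 20.1 CPM in R+S (-0.62 ± 0.14 SE). In each of these 3 the groups were separate. Mrpl34 was at 14.9 to 28.4 CPM in sunitinib and 9.92 to 10.99 CPM in R+S (-0.90 ± 0.20 SE).

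Among the small-subunit members, Mrps15, Mrps16 and Mrps27 were called lower and did not overlap. Mrps16, whose bacterial counterpart is an early-binding assembly protein, was at 26.7, 29.8, 35.4 and 53.8 CPM in sunitinib and 22.5, 18.2, 19.3 and 18.1 CPM in R+S (log2 fold change -0.90 ± 0.21 SE, edgeR adjusted p = 0.0335). Mrps27, an RNA-binding protein of the pentatricopeptide repeat type, had the narrowest spread of the 3, at 23.1 to 29.4 CPM in sunitinib and 16.5 to 19.3 CPM in R+S (-0.55 ± 0.11 SE, edgeR adjusted p = 0.0277). The R+S tumors were below every control for both, with lowest control values of 23.2 CPM for Mrps16 and 22.0 CPM for Mrps27.

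**Figure D2:**
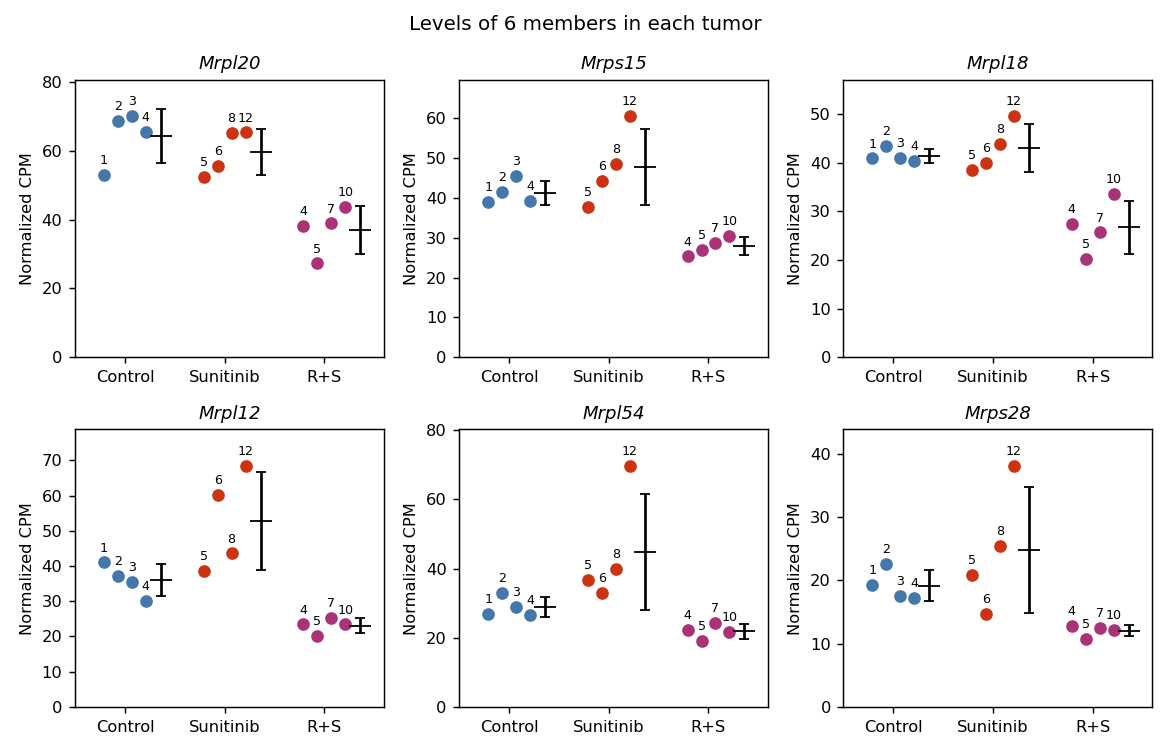
Normalized CPM of 6 members in each tumor, on linear axes from 0, with tumors labelled by number and bars for the mean and 1 SD of 4 tumors. Mrpl20, Mrps15 and Mrpl18 are the members called lower in both R+S comparisons, and Mrpl12, Mrpl54 and Mrps28 have the largest called differences between R+S and sunitinib. In all 6 panels the R+S tumors lie below every control and sunitinib tumor.

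By subunit, 15 of 49 tested large-subunit members (median log2 fold change -0.57) and 9 of 27 small-subunit members (median -0.49) were called lower in R+S than in sunitinib. By family, 17 of 47 members with a bacterial counterpart (median -0.56) and 7 of 29 found only in mitochondrial ribosomes (median -0.49) were called lower. Within the large subunit, these were 9 of 30 and 6 of 19. Within the small subunit, they were 8 of 17 and 1 of 10, the 1 being Mrps27. The difference between these classes was not tested. Mrpl58, a release factor that frees stalled ribosomes, was at 29.7 to 68.1 CPM in sunitinib and 30.2 to 32.3 in R+S (-0.51 ± 0.22 SE, edgeR adjusted p = 0.145), and Mrpl41 was at 24.1 to 50.4 and 18.6 to 24.4 CPM (-0.63 ± 0.21 SE, adjusted p = 0.0803). Mrps12, a protein of the decoding center, was at 25.9 to 55.5 CPM in sunitinib and 22.5 to 28.9 in R+S (-0.50 ± 0.23 SE, edgeR adjusted p = 0.164). In these 3 the groups overlapped. Mrps18a was separate between the groups, at 39.7 to 62.3 and 31.0 to 34.8 CPM, with an edgeR adjusted p of 0.0688. Mrps30 was called lower, at 29.1 to 39.5 CPM in sunitinib and 24.2 to 26.3 CPM in R+S (-0.40 ± 0.11 SE, edgeR adjusted p = 0.0488).

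At the other end of the order, Mrpl23 (log2 fold change 0.14 ± 0.21 SE) and Mrpl3 (0.12 ± 0.14 SE) were the 2 members with a higher mean in R+S than in sunitinib, and neither passed the test (edgeR adjusted p = 0.685 and 0.584). Mrpl23 was at 2.41 to 2.86 CPM in sunitinib and 2.44 to 2.98 CPM in R+S, the fewest reads of any tested member. Mrpl4, whose bacterial counterpart lines the peptide tunnel, was at 31.4 to 45.9 CPM in sunitinib and 35.4 to 38.6 CPM in R+S (-0.12 ± 0.14 SE). In these 3 the groups overlapped.

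**Figure D3:**
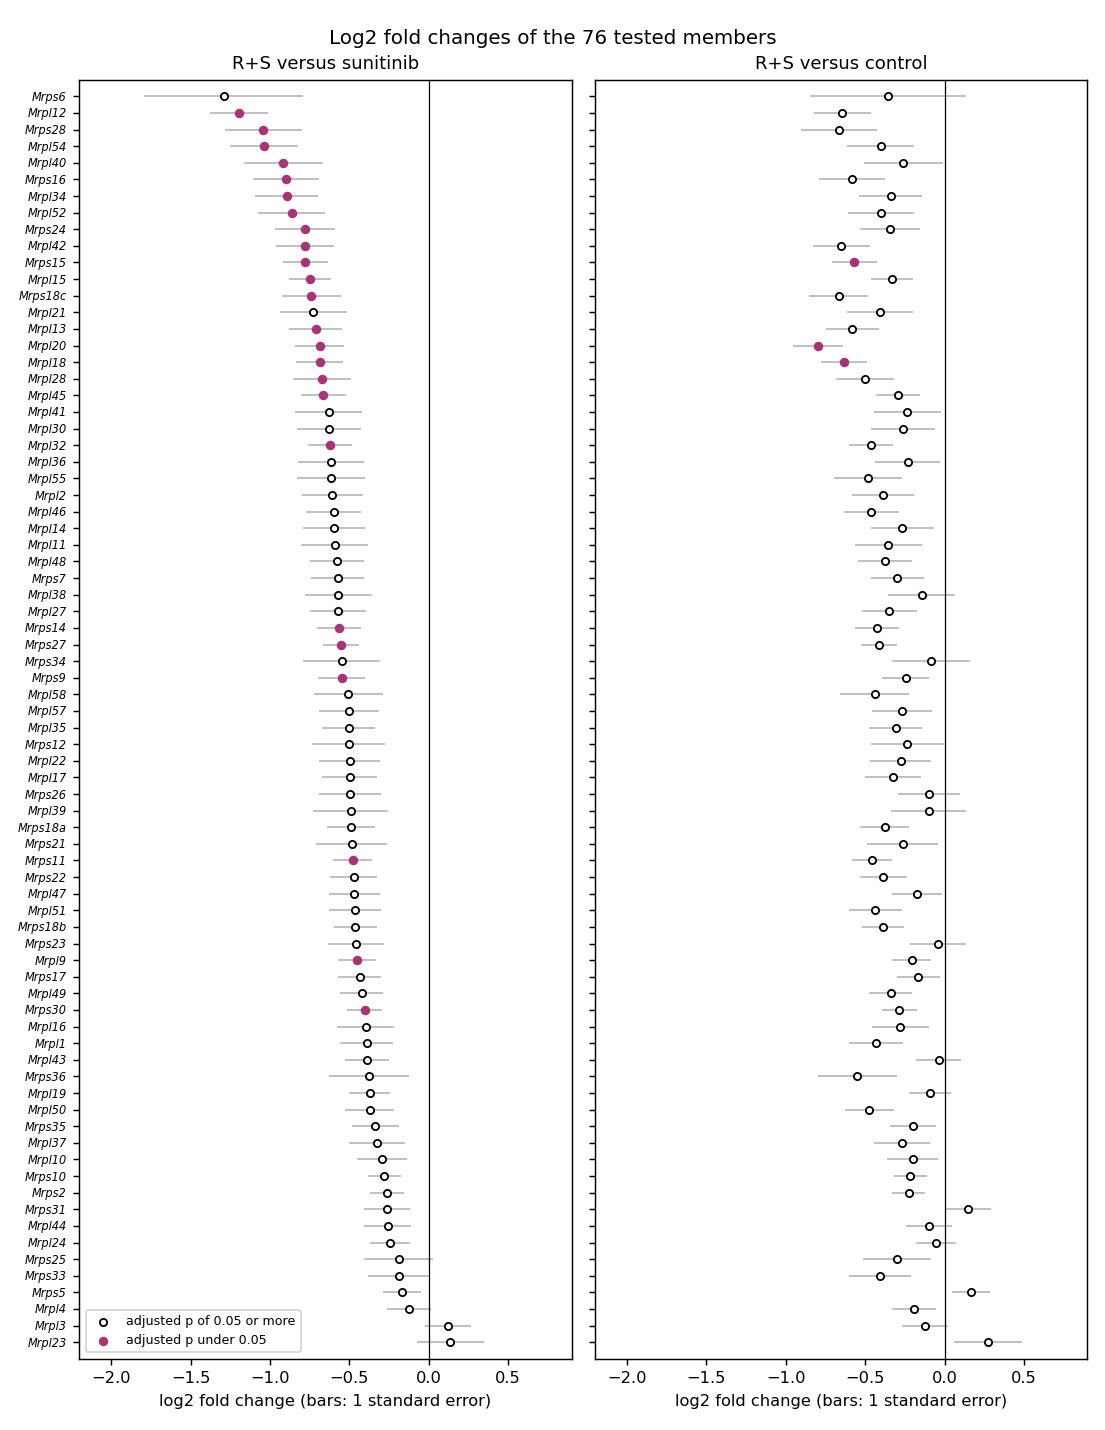
Log2 fold change of each of the 76 tested members, in R+S against sunitinib (left) and in R+S against control (right), with bars of 1 standard error and members ordered by the left panel. Filled points have an edgeR adjusted p under 0.05, which holds for 24 members on the left and 3 on the right. On the left 74 members and on the right 73 members lie below 0.

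R+S was also compared with saline, the comparison for the combined therapy as a whole. It shares its R+S tumors with the comparison above and is no separate sample of them. Here 73 of 76 members had a lower mean in R+S, with a median log2 fold change of -0.32 (a ratio of 0.803) against 0.01 over all tested genes. The 3 members Mrpl20, Mrps15 and Mrpl18 (3.95%) were called lower by edgeR, against 2.61% of all tested genes, which is near the background. None was called higher, against 1.55%, and at an unadjusted p under 0.05 there were 26 members lower and none higher, against 10.9% and 9.26% of all tested genes. DESeq2 called 13 members lower and none higher, against 6.002% and 4.14%. All 4 R+S tumors lay below all 4 controls for 37 members (48.7%), against 11.9% of all tested genes. For 30 members (39.5%) the R+S tumors lay below every control and every sunitinib tumor, against 4.3% of all tested genes.

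The number called against control changed with single tumors too. It was 13 without sunitinib tumor 12, 10 without sunitinib tumor 6 and 8 without sunitinib tumor 5, where 4.36%, 5.56% and 2.92% of all tested genes were called lower. It was 1 without sunitinib tumor 8, control tumor 1, 2 or 4, or R+S tumor 4, 5 or 7, and 0 without control tumor 3. Where 1 member was called, 1.11% to 2.05% of all genes were called lower, so that count is near or below the background. Without control tumor 3 it was 1.10% of all genes. With only the 8 tumors compared the number of members called was 30, against 9.11% of all genes, and without sunitinib tumors 6 and 12 it was 26, against 8.55%. It was 0 with the acinar score as a covariate, where no gene was called and the median was -0.09.

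Mrpl20 (ENSMUSG00000029066, chr4:155802878-155809975), whose bacterial counterpart is needed for the first steps of large-subunit assembly, was at 53.0, 68.8, 70.1 and 65.5 CPM in control tumors 1 to 4. It was at 38.2, 27.3, 38.9 and 43.7 CPM in R+S tumors 4, 5, 7 and 10, and the 2 groups did not overlap. The sunitinib tumors, at 52.3 to 65.4 CPM, overlapped the controls. The log2 fold change of R+S was -0.80 ± 0.15 (SE) against control (edgeR adjusted p = 0.0148) and -0.69 ± 0.15 (SE) against sunitinib (edgeR adjusted p = 0.0309). The exact permutation p was 0.0286 in both, the smallest that 4 against 4 tumors can give. Against control it was called in 11 of the 12 fits without 1 tumor, the exception being the fit without control tumor 3, with an adjusted p of 0.0601.

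Mrps15 (ENSMUSG00000028861, chr4:126046925-126055532), whose bacterial counterpart binds the small-subunit rRNA directly, was at 39.0, 41.4, 45.5 and 39.3 CPM in the controls and at 25.3, 26.9, 28.7 and 30.5 CPM in R+S. Sunitinib tumors ranged from 37.7 to 60.5 CPM, and R+S lay below both other groups. The log2 fold change was -0.57 ± 0.14 (SE) against control (edgeR adjusted p = 0.0444) and -0.78 ± 0.14 (SE) against sunitinib (edgeR adjusted p = 0.0252). Against control the call held in 3 of 12 fits, being lost without sunitinib tumor 8, any 1 control or any 1 R+S tumor, with an adjusted p of up to 0.147.

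Mrpl18 (ENSMUSG00000057388, chr17:12911349-12916345), whose bacterial counterpart binds 5S rRNA, was at 40.9, 43.5, 40.9 and 40.4 CPM in the controls and at 27.4, 20.2, 25.6 and 33.5 CPM in R+S. The controls were close to each other, and every R+S tumor was below them. The sunitinib tumors, at 38.5 to 49.6 CPM, spanned the controls (log2 fold change 0.05 ± 0.15 SE). R+S differed by -0.63 ± 0.15 (SE) from control (edgeR adjusted p = 0.0354) and by -0.69 ± 0.15 (SE) from sunitinib (adjusted p = 0.0291). Against control it was called in 4 of 12 fits and lost without sunitinib tumor 8, any 1 control, or R+S tumor 4, 5 or 7, with an adjusted p of up to 0.103.

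Mrps18c (-0.67 ± 0.18 SE) and Mrps28 (-0.67 ± 0.24 SE) had log2 fold changes against control as low as that of Mrpl18 without passing the test (edgeR adjusted p = 0.065 and 0.147). Mrps36, whose product is now known as an adaptor of the 2-oxoglutarate dehydrogenase complex rather than a ribosomal protein, was at 3.78 to 5.03 CPM in the controls and 2.62 to 3.94 CPM in R+S (-0.55 ± 0.25 SE, edgeR adjusted p = 0.245). Mrpl23 (0.27 ± 0.21 SE), Mrps5 (0.17 ± 0.12 SE) and Mrps31 (0.15 ± 0.15 SE) were the 3 members with a higher mean in R+S than in control. In all 3 the groups overlapped.

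Sunitinib alone was compared with saline. Here 68 of the 76 members had a higher mean in sunitinib, with a median log2 fold change of 0.21 against 0.03 over all tested genes. No member was called higher or lower by edgeR, where 1.93% of all tested genes were called higher and 2.55% lower. At an unadjusted p under 0.05, 12 members were higher (15.8%) and none lower, against 11.3% and 8.20% of all tested genes. DESeq2 called 1 higher, Mrpl15, where it called 4.55% of all genes higher. The groups were separate, with sunitinib higher, for 5 members (6.58%), namely Mrpl15, Mrpl19, Mrpl45, Mrps31 and Mrps5, against 5.17% of all tested genes. Without sunitinib tumor 12 the median was 0.05 and 30 members had a lower mean, so that the median depended on that tumor. Without sunitinib tumor 5, Mrpl40, Mrpl15 and Mrpl12 were called higher, against 2.76% of all genes, and the median was 0.32. Without control tumor 4 the median was 0.14.

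Mrps31, a small-subunit protein found only in mitochondrial ribosomes, was at 16.4 to 20.6 CPM in the controls and 21.2 to 30.6 CPM in sunitinib (log2 fold change 0.41 ± 0.15 SE, edgeR adjusted p = 0.149). Mrps5, whose bacterial counterpart bears on decoding accuracy, was at 38.3 to 41.6 CPM in the controls and 43.9 to 57.4 CPM in sunitinib (0.33 ± 0.12 SE, edgeR adjusted p = 0.155). Mrpl54 (0.63 ± 0.21 SE) and Mrpl40 (0.66 ± 0.25 SE) overlapped between the groups, and their edgeR adjusted p was 0.126 and 0.171. Mrpl3 (-0.25 ± 0.14 SE), Mrps33 (-0.22 ± 0.19 SE) and Mrps36 (-0.17 ± 0.25 SE) had the lowest values, with adjusted p of 0.373 or more.

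Some of the members that departed from the common pattern lay on chromosomes whose other genes were shifted as a whole in single tumors. The shift is given as the median, over the other tested genes of a chromosome with a mean log2 CPM above 3, of the log2 CPM minus that gene's median over the 12 tumors. On chromosome 16 it was 0.64 in sunitinib tumor 6 and 0.58 in R+S tumor 5. Of the 3 members there, Mrps6 was at 25.7 CPM in sunitinib tumor 6 and between 3.42 and 7.67 CPM in the other 11 tumors. Of its exon bases, 19.9% overlap another gene on the same strand. As log2 CPM minus its median over the 12 tumors, Mrps6 stood at 2.40 in sunitinib tumor 6 and 0.11 in R+S tumor 5. Its values therefore did not match the size of the chromosome shift in either tumor. Mrpl39 stood at 0.91 and 0.39 in the same order, with 34.5 and 23.9 CPM. Mrps6 had the lowest log2 fold change of R+S against sunitinib (-1.29 ± 0.50 SE, edgeR adjusted p = 0.111). Without sunitinib tumor 6 it was -0.38. Mrpl40 reached 35.7 CPM in sunitinib tumor 6, but also 30.5 and 26.4 CPM in tumors 8 and 12, and it was called lower in R+S (-0.92 ± 0.25 SE, edgeR adjusted p = 0.0482) with R+S tumor 5, at 19.1 CPM, above sunitinib tumor 5, at 15.2 CPM. The call held in 1 of the 12 fits without 1 tumor.

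On chromosome 9 the other genes were shifted by -0.67 in sunitinib tumor 12. Mrpl3, a protein near the peptidyl transferase center, had its lowest level there, 28.1 CPM, against 37.5 to 49.4 CPM in the other 11 tumors, whereas 60 members had their highest level in that tumor. Mrpl4 and Mrps22, on the same chromosome, were not at their lowest in tumor 12. As log2 CPM minus the gene's median over the 12 tumors, they stood at 0.25 and 0.01 there, below most members in that tumor. On chromosome 8 the shift was -0.50 in control tumor 1, where Mrps31 was at 16.4 CPM, its lowest level of all tumors, and Mrpl34 at 11.9 CPM, above the 4 R+S tumors. The separation of Mrps31 between control and sunitinib includes that tumor. On chromosome 4, with Mrpl20 and Mrps15, the shifts were smaller. They were -0.19, 0.18, 0.15 and 0.10 in control tumors 1 to 4, 0.01, -0.27, 0.11 and -0.10 in sunitinib tumors 5, 6, 8 and 12, and -0.16, -0.20, -0.03 and 0.19 in R+S tumors 4, 5, 7 and 10. Thus 3 of 4 controls were shifted up and 3 of 4 R+S tumors down. The part of these shifts was tested only by a fit that took them out as offsets, added after the data had been seen. Mrpl20 was then called lower against control (-0.69), Mrps15 was not (-0.46, adjusted p = 0.111), 6 members were called lower against control (3.23% of all genes) and 27 against sunitinib (5.84%), 24 of them among the 24 called without offsets.

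**Figure D4:**
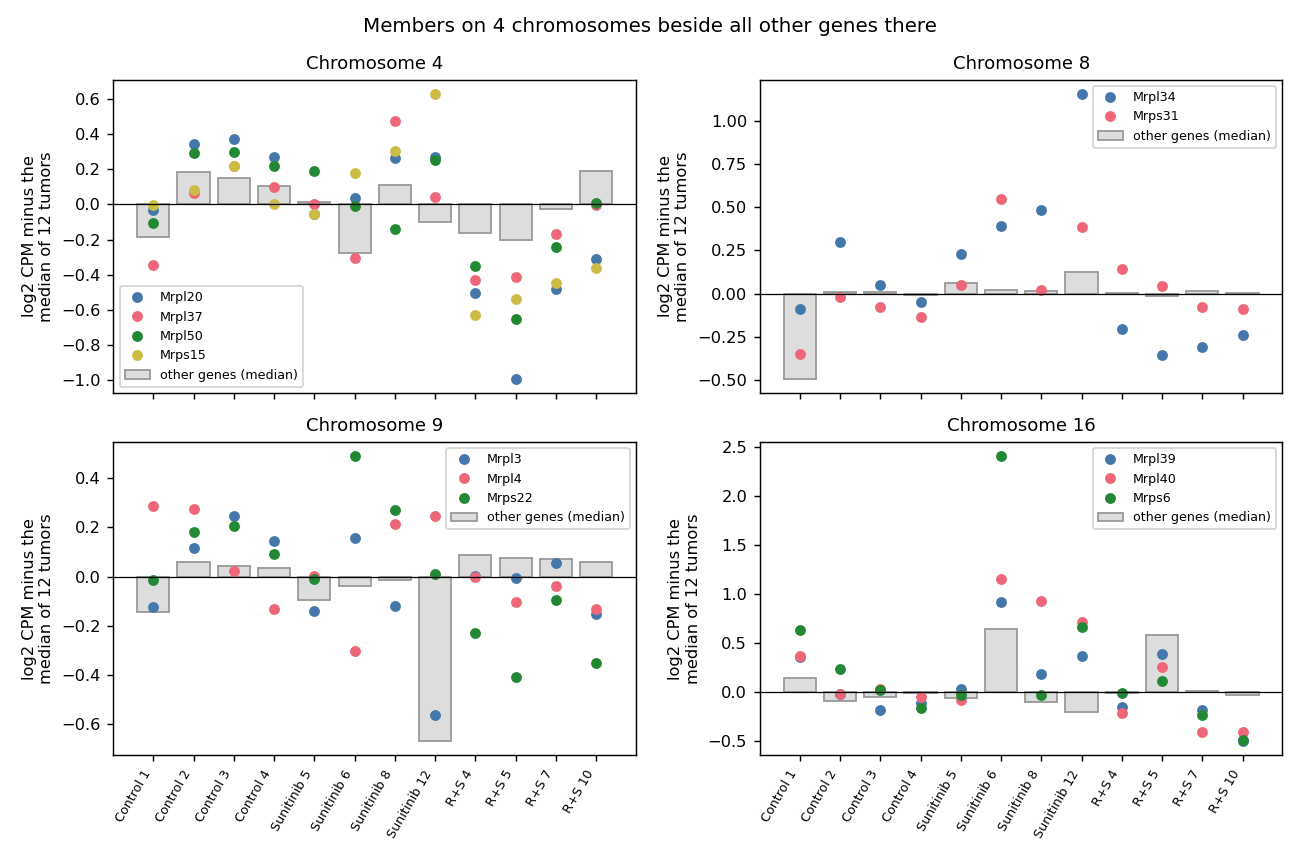
Members on chromosomes 4, 8, 9 and 16 in each tumor, as log2 CPM minus the gene's median over the 12 tumors (points), beside the median of the same quantity over the other tested genes of that chromosome with a mean log2 CPM above 3 (bars). On chromosome 16 the other genes stood at 0.64 in sunitinib tumor 6 and on chromosome 9 at -0.67 in sunitinib tumor 12, where Mrpl3 had its lowest level.

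The remaining genes of mitochondrial translation were compared by lists chosen for their role. The first list held 6 genes, namely mitochondrial ribosome proteins whose symbols follow another scheme and Oxa1l, an inner-membrane insertase that binds the ribosome. Their median log2 fold change in R+S against sunitinib was -0.53, and 2 of them were called lower. These were Chchd1 (-0.86 ± 0.15 SE) and Aurkaip1 (-0.79 ± 0.18 SE), both small-subunit proteins, with edgeR adjusted p of 0.0241 and 0.0335. The 6 summed to 262 to 312 CPM in the controls, 299 to 446 in sunitinib and 242 to 255 in R+S, so that R+S again lay below both other groups.

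Factors that work on the ribosome or build it were taken next. Of 15 factors for initiation, elongation, release and recycling, none was called in R+S against sunitinib (median 0.02), and their sum was 580 to 857 CPM in R+S against 626 to 763 CPM in sunitinib. Of 27 assembly factors and rRNA-modifying enzymes, the rRNA methyltransferases Mrm1 (-0.94 ± 0.19 SE) and Mrm3 (-0.86 ± 0.20 SE) were called lower and Mterf3, a large-subunit assembly factor, higher (0.48 ± 0.09 SE), with a median of -0.19. Mterf3 was also higher in R+S than in control (0.37 ± 0.09 SE, edgeR adjusted p = 0.0413). None of 20 mitochondrial tRNA synthetase genes was called (median -0.06), and none of 12 genes for transcription and upkeep of mitochondrial DNA (median -0.21). Twnk, the mitochondrial DNA helicase, was called higher in R+S than in control (0.44 ± 0.10 SE, edgeR adjusted p = 0.0334). Of 9 nuclear regulators of mitochondrial genes, Pprc1, a coactivator of the PGC-1 family, was called lower (-0.52 ± 0.12 SE, edgeR adjusted p = 0.0309), with a median of -0.30.

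The mRNAs that these ribosomes translate come from mitochondrial DNA, and 10 of the 13 had enough reads to be tested. Of these, 7 had at least 100 reads in every tumor, a limit set after the counts were seen, and the median over those 7 was 0.21 in R+S against sunitinib. Among them mt-Nd5, a subunit of respiratory complex I, was called higher (0.73 ± 0.19 SE, edgeR adjusted p = 0.0404). In sunitinib against control mt-Nd6, another complex I subunit and the only one read from the light strand, was called higher (1.19 ± 0.29 SE, edgeR adjusted p = 0.043). Their sum was 26911 to 33339 CPM in the controls, 20032 to 22935 in sunitinib and 22560 to 33288 in R+S. The sum was carried by 6 of them, since mt-Co2 had 13 to 37 reads in a tumor where mt-Co1, from the same strand of the same genome, had 166044 or more. Such counts are below what those transcripts are known to reach and are not read here as levels.

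Cytosolic ribosomal proteins are the counterpart set, and mTOR is known to control their translation. In R+S against sunitinib, 12 of 84 were called lower, against 4.58% of all tested genes, with a median of -0.48, Rpl12 (-1.22 ± 0.17 SE) among them. In R+S against control none was called, where 2.61% of all tested genes were called lower. The median there was -0.05 where the members had -0.32. In sunitinib against control 6 of 84 were called higher, against 1.93% of all tested genes, Rps2 (1.37 ± 0.25 SE) and Rpl12 (0.89 ± 0.17 SE) among them. The median was 0.48 where the members had 0.21. Their summed level was 20741 CPM in sunitinib tumor 12 and 9118 to 13601 CPM in the other 11 tumors. In the controls Rps2 was at only 8.02 to 13.5 CPM and Rpl12 at 7.95 to 9.79 CPM. Shared words were not scanned in this set. Its levels may therefore be understated where reads fall on several genes. The difference between these lists was not tested.

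**Figure D5:**
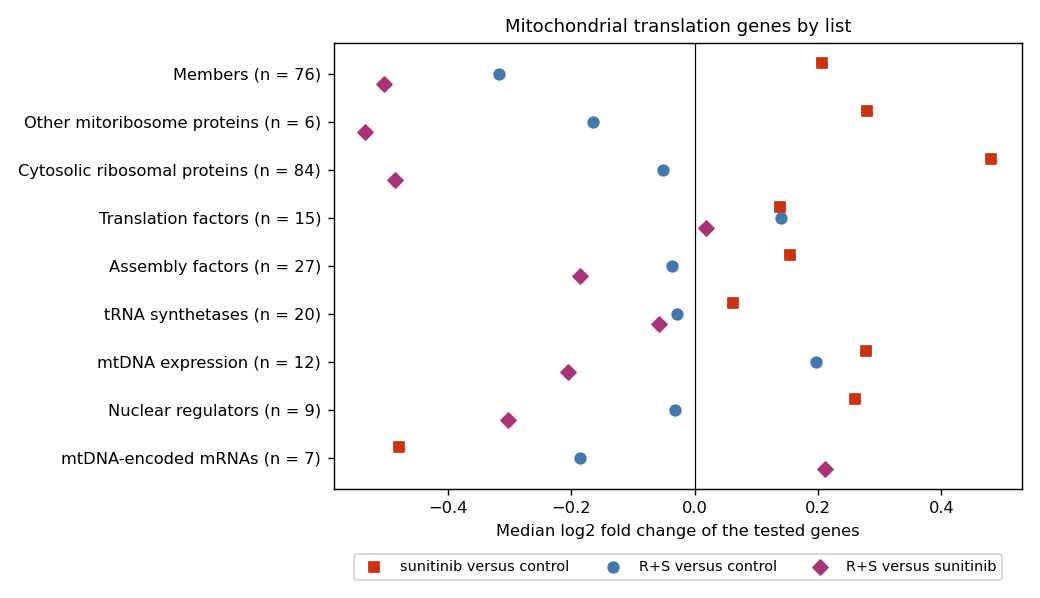
Median log2 fold change of the tested genes of each list in 3 comparisons, one marker per comparison and the number of tested genes beside each name. The list of mtDNA-encoded mRNAs is limited to the 7 with at least 100 reads in every tumor. The members stand at -0.50 in R+S against sunitinib and -0.32 in R+S against control, whereas the cytosolic ribosomal proteins stand at -0.48 and -0.05, and the translation factors at 0.02 in R+S against sunitinib.

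The tested genes outside the members whose log2 CPM over the 12 tumors was most like the mean of the members were Psmc4 (Pearson r = 0.995), Hras (0.994), Psma7 (0.993), Psmb4 (0.988) and Ndufs6 (0.988). Psmc4, Psma7 and Psmb4 encode proteasome subunits, Ndufs6 a subunit of respiratory complex I and Hras a small GTPase. The points share libraries, scaling and depth, so the values are a description. The log2 fold changes of these 5 genes in R+S against sunitinib were between -0.75 and -0.99. Genes picked for likeness to the members over these tumors share their direction by that choice, so this is no separate result.

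The members are shorter genes than most, with a median annotated exon length of 2394 bases against 4067 over all tested genes, and a median GC content of 50.4% against 50.2%. Across the 76 members the Spearman correlation of exon length with the log2 fold change of R+S against sunitinib was 0.42, and that of GC content was -0.28. Across all tested genes they were 0.25 and -0.20, so shorter genes in general had lower values in this comparison. With trends on GC content and length removed as offsets, an alternative added after the data had been seen, 13 members were called lower in R+S than in sunitinib. Of these, 12 were among the 24, the median was -0.36, and 3.86% of all genes were called lower. Against control 2 were then called, Mrpl20 and Mrps18c, with a median of -0.25. There 2.97% of all genes were called lower, so this count is near the background.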

How the data were processed

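RNA from 12 tumors had been made into poly(A) libraries with the TruSeq Stranded mRNA kit. The authors deposited 1 table of raw read counts per gene and tumor, whole numbers without normalization. The submitters' processing notes name cutadapt 1.2.1, TopHat2 2.0.9, HTSeq 0.5.4p3 and GRCm38. The annotation release is not given in the sources used here. The 5 closing lines of each table, totals of reads assigned to no single gene, were left out.

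Identifiers were paired with symbols, coordinates and exons through GENCODE M21 (37607 of 38924). That annotation holds 78 members, of which Mrpl33 had no row under its identifier and is not analysed here. Another 5 symbols of the same form are not protein-coding and were left out.

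Genes were kept by filterByExpr (minimum count 10, minimum total 15; 16645 genes). All 12 tumors entered 1 fit by edgeR 4.0.16 (R 4.3.3, limma 3.58.1) with TMM scaling and the robust quasi-likelihood F-test, with 3 contrasts and Benjamini-Hochberg adjustment within each at a threshold of 0.05. Standard errors were taken as the absolute log2 fold change over the root of F. A prior count of 2 entered log2 CPM. Exact two-sided permutation tests ran over the 70 arrangements of 4 tumors against 4. The script was tested on simulated counts. Totals of 31872342 to 44215054 reads leave members with few reads imprecise, and PCR copies were not marked. No 2 tumors of a group had counts within sampling noise of each other.

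The members and lists were chosen with earlier results of these data known. Named genes were up to 12 members called in R+S against sunitinib, by p, those called in the other comparisons, the 3 highest and lowest log2 fold changes of each, the 3 highest and lowest levels per kilobase, 7 members of known role, any that failed the filter, up to 3 called genes per list and direction, and the 5 genes most like the members. The 7 were Mrpl12, Mrpl41, Mrpl58, Mrps30, Mrps18a, Mrps36 and Mrps12. Other members were named after their values had been seen. Alternatives were DESeq2 1.42.0, other scalings and filters, subsets of tumors, a covariate for acinar transcripts and 3 alternatives added after the data had been seen.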

Additional observations from a re-analysis of the deposited data

Results flagged for a closer look

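In groups of 4 tumors, 7 of 96 tested sets of values for 31 named members and for the members' sum had 1 tumor unusually far from the other 3 by Dixon's criterion, which chance meets in about 1 of 20 groups. Sunitinib tumor 12 had 62.3 CPM of Mrps18a, against 39.7 to 42.4 CPM in the other 3. R+S tumor 5 had 36.3 CPM of Mrpl28, against 44.3 to 46.0 CPM. R+S tumor 4 had 18.8 CPM of Mrps18c, against 15.8 to 16.1 CPM. R+S tumor 7 had 32.3 CPM of Mrpl58, against 30.2 to 30.3 CPM. Among the controls, tumor 2 had 43.5 CPM of Mrpl18 (others 40.4 to 40.9), tumor 3 had 38.3 CPM of Mrps5 (others 41.1 to 41.6) and tumor 4 had 25.5 CPM of Mrpl45 (others 28.1 to 28.5).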

How the results depend on the processing

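The median log2 fold change of the members kept its sign in every alternative and in every fit without 1 tumor. Without 1 tumor, calls ranged from 0 to 13 lower in R+S against control (3 in all 12 tumors), from 0 to 48 lower in R+S against sunitinib (24) and from 0 to 3 higher in sunitinib against control (0). Medians ranged from -0.37 to -0.29, -0.62 to -0.35 and 0.05 to 0.32. In sunitinib against control the median, 0.21, was 0.36 with tumors of 1 label prefix summed, 0.036 without sunitinib tumors 6 and 12 and 0.14 with GC and length offsets. DESeq2 called 13, 49 and 1. The share of all genes called lower is given in brackets below. In R+S against control, 6 were called with library size only (3.28%), 1 without a filter on low counts (1.21%) and 1 with tumors of 1 label prefix summed (2.32%). The counts of 1 are near or below the background. Another 30 were called with only the 8 tumors compared (9.11%), 26 without sunitinib tumors 6 and 12 (8.55%) and 6 with chromosome offsets (3.23%). In R+S against sunitinib, 8 were called without a filter (1.12%) and 0 with only the 8 tumors (0.0186%). There were 5 without sunitinib tumors 6 and 12 (0.73%) and 13 with GC and length offsets (3.86%). The acinar covariate, which separates saline from treated tumors without overlap, left 0 calls over all genes in each comparison, with medians of 0.50 in sunitinib against control and -0.087 in R+S against control. Under it, Mrps33 (0.52), Mrps36 (0.10), Mrpl40 (-0.74) and Mrps6 (-1.35) turned sign in sunitinib against control, and Mrps28 (0.17) and Mrpl23 (-0.41) in R+S against control. Mrps36 turned to 0.019 with prefixes summed and Mrps6 to -0.25 without sunitinib tumors 6 and 12. In R+S against sunitinib, Mrpl4 turned to 0.16 with GC and length offsets, and Mrpl3 to -0.14 with chromosome offsets and -0.017 with GC and length offsets. The cause of these changes was not tested. Depth limits Mrpl23 (66 to 133 reads per tumor) and Mrps36 (106 to 235) most among tested members. No paired analysis was possible because any 2 groups share fewer than 2 replicate numbers in the labels.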
